A study of Homo sapiens with 24 samples.

Results

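To describe where H3K27me3 forms its longest stretches in a pancreatic cancer cell, the large domains were taken from the 6 deposited H3K27me3 peak lists of PANC-1 cells, a line from a human pancreatic ductal carcinoma. Every peak of at least 10 kb was kept, overlapping ones were merged across lists, and merged domains within 1 Mb of an hg19 assembly gap of 50 kb or more were dropped. This left 3287 domains of 4014, out of 200513 merged H3K27me3 regions in all. The cells had been transfected with a control siRNA and left untreated (siControl), transfected with the control siRNA and given TGFβ at 10 ng/ml for 48 h (siControl+TGFβ), or transfected with an siRNA against PHF13 and given the same TGFβ (siPHF13+TGFβ). 2 chromatin immunoprecipitation (ChIP-seq) libraries per group were made for each of H3K27me3, H3K4me3 and H3K27ac. All groups are the same cell line, the siRNA lowers a transcript and does not delete the gene, and no label says whether the 2 libraries of a group came from separate cultures, so p-values measure only the spread between libraries. The domains were chosen by peak width in these same H3K27me3 lists. Values of H3K27me3 inside them are therefore a description with no test, while H3K4me3 and H3K27ac played no part in the choice.

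H3K27me3 is laid down by Polycomb repressive complex 2, whose catalytic subunit is EZH2 or EZH1, and it covers genes that a cell keeps silent, among them many regulators of embryonic development. It can spread from CpG-rich promoters over neighbouring sequence and form domains that span whole genes. H3K4me3 marks promoters, and a promoter that carries it together with H3K27me3 is called bivalent. H3K27ac marks active promoters and enhancers and sits on the same lysine that H3K27me3 modifies, so a single histone tail carries one or the other.

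Several limits of the libraries bear on every comparison. The names of peaks inside the lists labelled siControl+TGFβ and siPHF13+TGFβ go against the labels of these groups, so each direction between them, and each value of siControl+TGFβ against siControl, holds only if the labels are right. siPHF13+TGFβ replicate 1 gave the shortest list of every modification, and siControl replicate 2 gave the longest H3K27me3 list. The H3K27me3 lists held 59573 to 165717 peaks that covered 48.6 to 293 Mb, and since they hold peaks and not reads, depth cannot be known from them. H3K4me3 peaks lay within 5 kb of the start of KRT8, KRT18, KRT19 and EPCAM, all epithelial genes, in 6 of 6 lists, and of KRT7 in 1. At PTPRC, CD3E and CDH5, markers of blood and endothelial cells, they were in 0 lists.

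The domains with and without H3K4me3 differed in how many CpG dinucleotides they held. For this reason 3 stretches are shown, from the plus strand of GRCh37, with each CpG in capitals. The first holds the 200 bases around the summit of the strongest H3K4me3 peak of siControl+TGFβ replicate 1 in the domain over the start of PAX5. The others are the central 200 bases of the longest domains that held H3K4me3 in 0 lists and whose centre lay outside exons. They lie on chromosomes 11 and 12 in introns of DSCAML1, a neuronal adhesion gene, and of CUX2, a neuronal homeobox gene.
chr9:37036797-37036996: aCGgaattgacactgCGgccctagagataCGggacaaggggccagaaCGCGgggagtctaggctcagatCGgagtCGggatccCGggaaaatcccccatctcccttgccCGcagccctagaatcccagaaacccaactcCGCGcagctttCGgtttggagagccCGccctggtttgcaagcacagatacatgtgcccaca
chr11:117539809-117540008: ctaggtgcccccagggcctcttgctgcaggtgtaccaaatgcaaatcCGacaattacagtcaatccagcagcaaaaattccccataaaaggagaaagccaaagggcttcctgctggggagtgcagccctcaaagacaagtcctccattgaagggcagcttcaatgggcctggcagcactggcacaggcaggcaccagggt
chr12:111613166-111613365: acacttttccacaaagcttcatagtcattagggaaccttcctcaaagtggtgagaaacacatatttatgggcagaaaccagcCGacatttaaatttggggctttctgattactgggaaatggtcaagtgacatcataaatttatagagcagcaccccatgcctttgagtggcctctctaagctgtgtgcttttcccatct
The sequence at the H3K4me3 summit held 13 CpGs, and each one from a domain without H3K4me3 held 1. The GC content was 60.0% in the first and at most 55% in the others. A peak summit is set here against domain centres, so these counts do not measure the difference between whole domains. Over whole domains the median was 19.3 CpGs per kb with H3K4me3 in all 6 lists and 11.04 with it in 0 lists. A last stretch, of 100 bases, comes from a domain on chromosome 7 that had a large peak in all 6 lists, and it is shown because the same 100 bases occur at 2 places in the reference.
chr7:65071284-65071383: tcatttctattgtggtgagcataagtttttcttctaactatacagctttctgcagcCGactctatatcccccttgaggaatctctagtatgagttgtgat
The second copy lies on the minus strand at chr7:126555534-126555633.

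The domains together covered 62.3 Mb, which was 2.42% of the 2569 Mb that lay at least 1 Mb from such a gap. Their length ran from 10001 to 207765 bp, with a median of 14567 bp and quartiles of 11726.5 and 20909.5 bp. 99 domains reached 50 kb and 10 reached 100 kb, and 72.8% were under 20 kb. By the rule's threshold the shortest large peak of each list was 10000 to 10080 bp long and the longest peak left out was 9928 to 9999 bp, with 35 to 855 peaks per list between 9 and 10 kb and 28 to 617 between 10 and 11 kb. At the gap rule, the nearest dropped domains lay 996143 and 996505 bp from a gap and the nearest kept ones 1000812 and 1002958 bp.

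Most domains rested on few lists. A large peak was found in only 1 of the 6 lists for 1502 domains (45.7%), and for 1115 of the 3287 (33.9%) that list was siControl replicate 2. A large peak was found in 2 lists for 672 domains, in 3 for 506, in 4 for 420, in 5 for 158 and in all 6 for 29 (0.882%). Domains with more lists were longer, with a median of 11769.5 bp for 1 list, 15248.5 bp for 2, 19667.5 bp for 3, 27357 bp for 4, 31622 bp for 5 and 42741 bp for 6, as merging over more peaks allows. Of the 32 domains with a large peak in siPHF13+TGFβ replicate 1, 29 had one in every other list too.

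Cover of the domains by H3K27me3 peaks of any size had the same order as the bp that each list covered in all. It was 34.1 and 59.8 Mb (siControl), 47.6 and 52.4 Mb (siControl+TGFβ), and 18.3 and 51.8 Mb (siPHF13+TGFβ), with replicate 1 before replicate 2 here and in all pairs of values that follow. As a share of the domain length this was 54.7% and 96.0%, 76.4% and 84.2%, and 29.4% and 83.2%. The groups overlapped in both comparisons, and the widest gaps were those between replicates of siControl and of siPHF13+TGFβ. Group means were 46.9 ± 18.2 Mb (siControl), 49.99 ± 3.43 Mb (siControl+TGFβ) and 35.0 ± 23.7 Mb (siPHF13+TGFβ) (SD, n = 2). On the log2 scale cover was 0.15 higher with TGFβ (pooled SD 0.41) and 0.70 lower with PHF13 depletion (pooled SD 0.75), each smaller than the spread between replicates. Without siControl replicate 1 the first value was -0.26, and without siPHF13+TGFβ replicate 1 the second was 0.05.

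**Figure D1:**
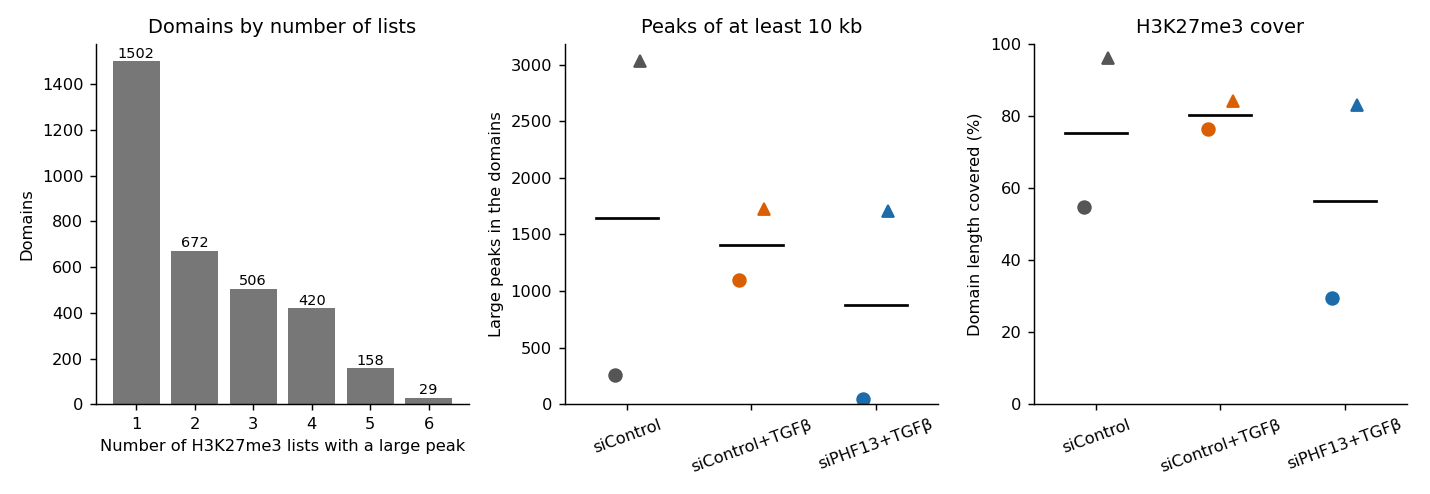
Left, the number of domains (vertical axis) by the number of H3K27me3 lists with a peak of at least 10 kb in them, from 1502 with 1 list to 29 with 6. Middle and right, the number of large peaks in the domains and the percentage of domain length covered by H3K27me3 peaks in each library (circles, replicate 1; triangles, replicate 2; line, group mean), where siPHF13+TGFβ replicate 1 is lowest and siControl replicate 2 highest.

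The share of a list that fell into the domains moved the other way. It was 37.6% of the covered bp in siPHF13+TGFβ replicate 1, the shortest list, and 20.4% in siControl replicate 2, the longest. The remaining lists lay between 27.4% and 32.5%. The median fold enrichment of large peaks over input, as the authors' peak caller gave it, was 3.01 to 4.09 per list, against 2.57 to 3.44 for shorter peaks of the same lists. 59 of the domains held no H3K27me3 peak in siPHF13+TGFβ replicate 1, 3 held none in siControl replicate 1, and each of the other lists had a peak in every domain.

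Between groups, covered length per domain was compared by whether the values of the 2 libraries of one group all lay above those of the other. With TGFβ 123 of the 3287 domains (3.74%) had more H3K27me3 in both libraries, against 2.85% of all merged H3K27me3 regions, and 39 (1.19%) had less, against 4.6%. With PHF13 depletion 770 (23.4%) had less in both libraries, against 8.55% of all regions, and 2 (0.0608%) had more, against 0.813%. The rule used these same lists, so nothing is read from these shares. Large peaks themselves were present in both siControl+TGFβ and neither siControl list in 31 domains and the reverse in 4. They were present in both siControl+TGFβ and neither siPHF13+TGFβ list in 107 domains and the reverse in 0. Only 32 domains had a large peak in siPHF13+TGFβ replicate 1, and 29 of these had one in every other list. Few domains could thus count for the reverse, and nothing is read from these counts of large peaks either.

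The domains were unevenly placed. Chromosome 11 held 419 of them (3.52 per Mb, 7.87% of its length away from gaps), chromosome 20 held 175 (3.40 per Mb), chromosome 19 held 124 (2.61 per Mb) and chromosome 17 held 166 (2.52 per Mb). At the other end, chromosome 13 held 3, chromosome 21 held 5, chromosome 22 held 6, chromosome 4 held 13, chromosome 18 held 17 and the Y chromosome 0. The density of coding transcription start sites (TSSs) did not order the chromosomes in the same way, since chromosome 22 had 12.3 coding TSSs per Mb and chromosome 20 had 7.73. The 29 domains with a large peak in all 6 lists included 10 on chromosome 19.

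**Figure D2:**
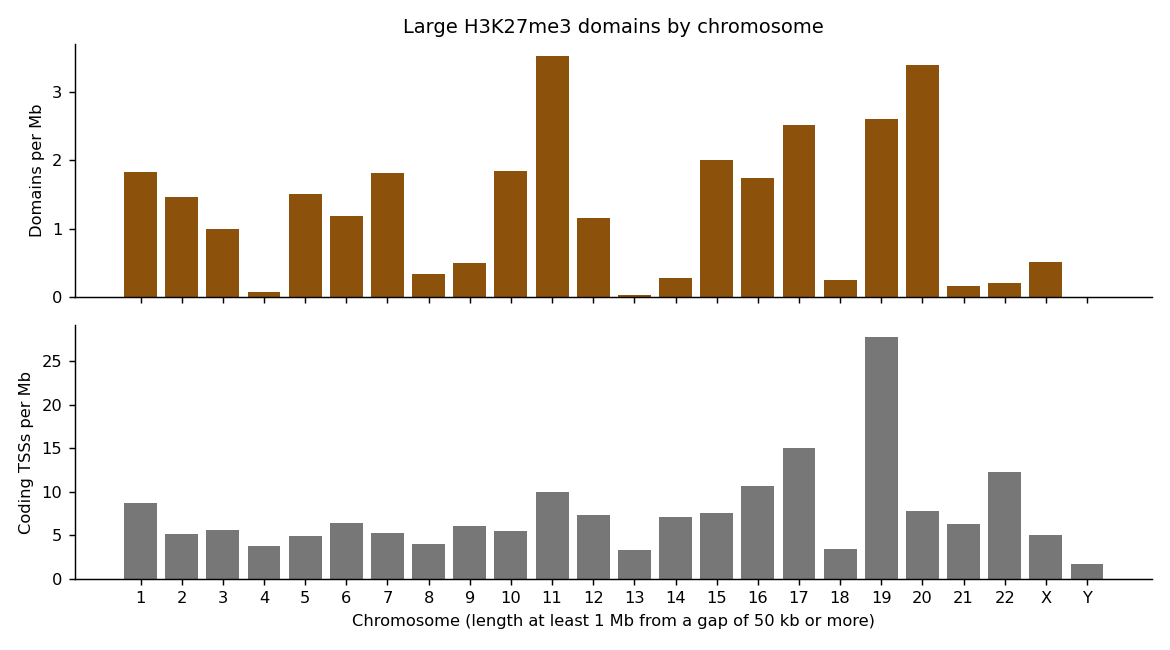
Large H3K27me3 domains per Mb (upper panel) and protein-coding TSSs per Mb (lower panel) for each chromosome, over the length at least 1 Mb from an assembly gap of 50 kb or more. Chromosomes 11 (3.52 per Mb) and 20 (3.40 per Mb) have the most domains per Mb and chromosomes 13, 4 and Y the fewest.

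Within chromosomes the domains clustered. In 5 Mb windows, 51 of the 633 windows of the genome held 50% of the domain length, and 363 held any. The fullest windows were neighbours on chromosome 11. From 115 to 120 Mb 51 domains covered 29.1% of the window, and from 120 to 125 Mb 56 domains covered 24.1%. The window from 70 to 75 Mb of chromosome 17 (22.0%) and that from 70 to 75 Mb of chromosome 10 (19.7%) followed. From one domain to the next on the chromosome the median distance was 41.1 kb, and for 26.6% of domains the next lay within 10 kb.

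The longest domain was chr19:40048160-40255924, of 207765 bp. It spans LGALS13, LGALS14 and LGALS16, galectins of the placenta, and CLC, the galectin of eosinophil crystals, all with their TSS inside. H3K27me3 peaks covered 96.5% and 99.1% of it (siControl), 97.4% and 99.3% (siControl+TGFβ) and 98.9% and 99.0% (siPHF13+TGFβ). Even the shortest list covered it almost whole. H3K4me3 peaks inside it covered 1824 and 3080, 5082 and 3224, and 864 and 3081 bp in the same order, so both siControl+TGFβ values lay above those of the other groups.

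Including the galectin domain, 6 domains with a large peak in all 6 lists lay along this part of chromosome 19. They were not an unbroken chain, since a domain of fewer lists lay between the interferon genes and the galectins. Copy number along the chromosomes was not tested. Upstream, chr19:39682857-39798394 (115538 bp) held the type III interferon genes IFNL1, IFNL2, IFNL3 and IFNL4, the stratified-epithelium gene NCCRP1 and SYCN, a protein of pancreatic zymogen granules, with covers of 87.8% to 100% over the 6 lists. The next after the galectins, chr19:40257802-40283445, held LEUTX, a homeobox gene of the early embryo, and was covered to 97.1% to 99.9%. It was followed by chr19:40284304-40299270, which overlaps no coding gene. chr19:40338982-40454928 (115947 bp) held FCGBP, a mucus protein that binds IgG, with 85.4% to 98.3%, and chr19:40624682-40645730 held no coding gene and no H3K4me3 in any list. Each of the 6 had a large peak in all 6 lists.

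Of the other domains past 100 kb, 3 overlapped no coding gene, at chr11:3444847-3628521 (183675 bp), chr11:67574092-67755850 (181759 bp) and chr17:75849600-75954335 (104736 bp). The gene PAX5, a transcription factor of B cells, carried domains at both ends. The first, chr9:36739702-36869997 (130296 bp), reached into its downstream part and covered no coding TSS, and the second, chr9:36996409-37076847 (80439 bp), held its start. H3K27me3 covered 69869 and 80304 bp of the second (siControl), 74285 and 77404 bp (siControl+TGFβ) and 55911 and 76289 bp (siPHF13+TGFβ). KRTAP5-10 and KRTAP5-11, keratin-associated genes of hair, lay in chr11:71265653-71390580. PKNOX2, a homeobox gene, and FEZ1, an axonal transport adaptor, lay partly in chr11:125207047-125315488. chr17:71471086-71562091 (91006 bp) lay wholly in the body of SDK2, a synaptic adhesion gene, and there no list had H3K4me3 or H3K27ac. The hominoid genes TBC1D3, TBC1D3F, TBC1D3K and TBC1D3L lay in chr17:36282724-36406189 (123466 bp).

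Some of the domains with a large peak in all 6 lists held gene families with near-identical copies, whose values are uncertain. Besides TBC1D3, the 29 domains included GOLGA6A at chr15:74358933-74389471 and GOLGA6C and GOLGA6D at chr15:75536870-75591075, members of a golgin family, and CT45A2 and CT45A8, cancer-testis antigen genes, at chrX:134850827-134871840. Others overlapped LPA, the gene of apolipoprotein(a), HLA-DRB1, a class II antigen-presenting molecule, LILRB2, an inhibitory receptor of leukocytes, OR4F4, an olfactory receptor, OTOA, an inner ear gene, and RYR1, the calcium release channel of skeletal muscle.

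To measure this, the domains were cut into 621173 stretches of 100 bases and each was looked up on both strands of the genome. Of these, 5.26% occurred more than once in the genome, in the same domain or elsewhere, against 2.003% of 626501 such stretches outside the domains. The median domain had 0% repeated stretches, and 120 domains had over 50%. Among the 29 domains with a large peak in all 6 lists 10 (34.5%) had over 50%, against 11 of 158 (6.96%) with 5 lists, 28 of 420 (6.67%) with 4 and 26 of 1502 (1.73%) with 1. The share was 85.9% in the GOLGA6A domain, 86.2% in the CT45A domain and 80.5% in the LPA domain, and 2.79% in the longest domain. Per the study's methods the aligner ran at its defaults, under which a read with several equally good matches is placed at one of them, and a filter on mapping quality is not given in the sources used here. The part of such reads in the result was not tested.

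Genes were next placed in the domains. Of the 17266 protein-coding genes whose TSS lay away from gaps, 929 (5.38%) had it in a domain, and 1449 coding genes overlapped one in any part. 272 genes lay wholly inside. In the other direction 826 domains (25.1%) held a coding TSS and 1420 (43.2%) overlapped no coding gene at all. Coding TSSs were 14.9 per Mb in the domains against 6.52 per Mb in the rest, and lncRNA TSSs 11.5 against 6.15 per Mb. Coding gene bodies took 41.7% of the domain length and 46.4% of the rest. The share of domains with a coding TSS was 17.6% with a large peak in 1 list, 36.2% with 4 and 48.3% with 6. With 5 lists it was slightly above that with 6. These shares were not adjusted for domain length, whose median was 11769.5, 27357 and 42741 bp for 1, 4 and 6 lists. No link between the number of lists and genes is therefore read from them.

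By gene list, the share with the TSS in a domain ran from 0% to 37.5%, given here as plain shares with no test, against 5.38% of all coding genes. 35 of 164 homeobox transcription factors (21.3%) had their TSS in a domain, as did 19 of 105 other developmental transcription factors (18.1%), 9 of 51 WNT, BMP, GDF and FGF ligands (17.6%), 19 of 87 potassium channels (21.8%) and 14 of 121 neural adhesion and synapse genes (11.6%). For the olfactory receptors it was 9 of 311 (2.89%), for ZNF zinc finger genes 4 of 427 (0.937%) and for the clustered protocadherins 0 of 53. The list of the epithelial-to-mesenchymal transition and TGFβ response held 19 genes, not all of them examined in the study. Of the 19, 17 had their TSS away from gaps, as all genes counted here did. Of these 17 genes 0 had their TSS in a domain, and 1 overlapped a domain with its body. Of 16 pancreatic lineage genes 6 had their TSS in a domain, and 7 overlapped one with their body.

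**Figure D3:**
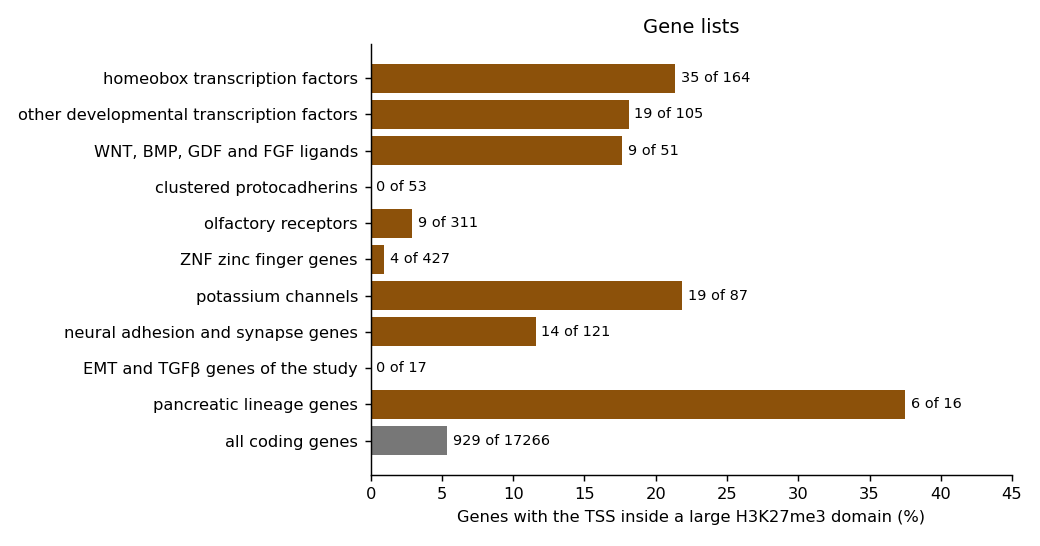
Percentage of the genes of each list (TSS at least 1 Mb from a gap) whose TSS lay inside a large H3K27me3 domain, with the counts beside each bar and all 17266 coding genes in grey (5.38%). Homeobox genes (21.3%) and potassium channels (21.8%) lie above that value, and ZNF genes (0.937%) below it.

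The homeobox members were PAX4, PAX5, PAX6 and PAX7, LHX2, LHX5 and LHX9, the cortex genes EMX1 and EMX2, the Hox-related EVX1 and EVX2, HOXA13, EN1, a regulator of midbrain and hindbrain, POU3F2 and POU3F3 of the nervous system, and 20 others. Over the 35 genes the median cover of their domains by H3K27me3 was 68.2% and 95.6% (siControl), 85.3% and 90.3% (siControl+TGFβ) and 38.8% and 89.7% (siPHF13+TGFβ). 19 of the 35 lay in domains with a large peak in at least 4 lists. 29 had H3K4me3 in the domain in all 6 lists, and 30 had H3K27ac in 0 lists.

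EN1 lay in chr2:119588180-119618964 (30785 bp), where H3K4me3 peaks covered 2969 and 4559 bp (siControl), 4582 and 3846 bp (siControl+TGFβ) and 2527 and 4010 bp (siPHF13+TGFβ). POU3F2 lay in chr6:99268915-99298988 (30074 bp), with 2568 and 3835, 3897 and 3649, and 2525 and 3435 bp of H3K4me3. For both genes replicate 1 of siControl and of siPHF13+TGFβ had the lowest values. The groups overlapped, except that both siPHF13+TGFβ values of POU3F2 lay below both of siControl+TGFβ. H3K27ac was at 0 bp in every list for both. POU2F3, a regulator of tuft cells, was among the 6 homeobox genes without H3K4me3 in every list. Its domain chr11:120100880-120143096 held 228 bp of H3K4me3 in siControl replicate 2 and 0 bp in the other lists.

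Among the other developmental transcription factors were SOX2, SOX14 and SOX17, the neurogenic genes NEUROG1, NEUROG2, NEUROG3 and NEUROD2, MYOD1 of muscle, TBXT of the primitive streak, HAND1 of the heart, FOXF1, FOXB1, TBX21 of T cells and GATA6. Of these 19, 15 had H3K4me3 in their domain in all 6 lists and 19 had H3K27ac in none. FOXN1, which the thymic epithelium needs, had neither mark in any list in chr17:26826930-26849872. The ligands were WNT1, WNT2, WNT3A, WNT7A, WNT8B, WNT10B, BMP4, BMP7 and GDF7, and 8 of these 9 had H3K4me3 in all 6 lists. WNT1 and WNT10B share the domain chr12:49363092-49389021, so they are a single observation of the chromatin.

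The pancreatic lineage members included NEUROG3, which starts the endocrine lineage, PAX4 and PAX6, which act in islet cells, and GATA6, which the pancreas needs to form. NEUROG3 lay in chr10:71318072-71367566, which had a large peak in 5 lists. H3K27me3 covered 36559 and 47342 bp of it (siControl), 46759 and 48757 bp (siControl+TGFβ) and 23359 and 47828 bp (siPHF13+TGFβ). Its H3K4me3 peaks measured 529 and 1673, 2484 and 2280, and 0 and 1210 bp in the same order. Each siControl+TGFβ library lay above all libraries of the other groups in H3K4me3. GATA6 lay in chr18:19738582-19749885, where a large peak was found in 1 list only and H3K4me3 covered 317 and 1144, 1246 and 1147, and 606 and 945 bp.

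Of the potassium channels, KCNJ9 and KCNJ10 shared chr1:160002679-160058738, and KCNQ1, a channel of heart and epithelia, lay in chr11:2456219-2493199. 15 of the 19 channels had H3K4me3 in their domain in all 6 lists and 4 (KCNIP1, KCNMB1, KCNK16 and KCNK18) in none. All 14 neural genes had it in all 6 lists. They included the axon guidance genes SEMA5B, SLIT1, ROBO3, UNC5A and UNC5B, the cadherins CDH22 and CDH23 and the glutamate receptors GRIK4, GRIN2C, GRM4 and GRM8. SEMA5B lay in a domain of 5 lists, chr3:122696403-122764508, with 2086 and 2008, 2111 and 2133, and 1444 and 1928 bp of H3K4me3.

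To see how the active marks lie in this repressed chromatin, H3K4me3 and H3K27ac peaks that overlapped a domain by at least 1 bp were counted. H3K4me3 was found in 26.1% and 31.9% of the domains (siControl), 34.3% and 31.4% (siControl+TGFβ) and 25.04% and 29.9% (siPHF13+TGFβ). 776 domains (23.6%) had it in all 6 lists and 2104 (64.01%) in none. H3K27ac was found in 0.761% and 1.31%, 2.92% and 1.399%, and 0.243% and 2.89% of the domains. 152 (4.62%) had it in at least 1 list and 6 in all 6, and of the 152, 124 also had H3K4me3 in at least 1 list.

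Per length, the marks went opposite ways. H3K4me3 peaks covered 11551 to 23307 bp per Mb of domain, 1.41 to 1.73 times as much as in the rest of the genome away from gaps, and 1.61 to 1.67 times as much as in other H3K27me3 regions. The ratio was above 1 in 6 of 6 libraries in each case (exact two-sided sign-flip test over the libraries, p = 0.03125, the smallest that 6 libraries allow). H3K27ac peaks covered 48.2 to 815 bp per Mb, only 0.0447 to 0.0800 times the rest of the genome, with 0 of 6 libraries above 1 (exact sign-flip p = 0.03125). Against other H3K27me3 regions the ratio was 0.515 to 0.892. All libraries were scored on the same domains, so these p-values measure only whether the libraries agree. The domains were chosen by a mark of the same lysine, so the direction for H3K27ac could be foreseen and its p-value adds no support. Peaks of H3K4me3 were 638 to 1005 bp wide at the median inside the domains and 783 to 921 bp outside.

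**Figure D4:**
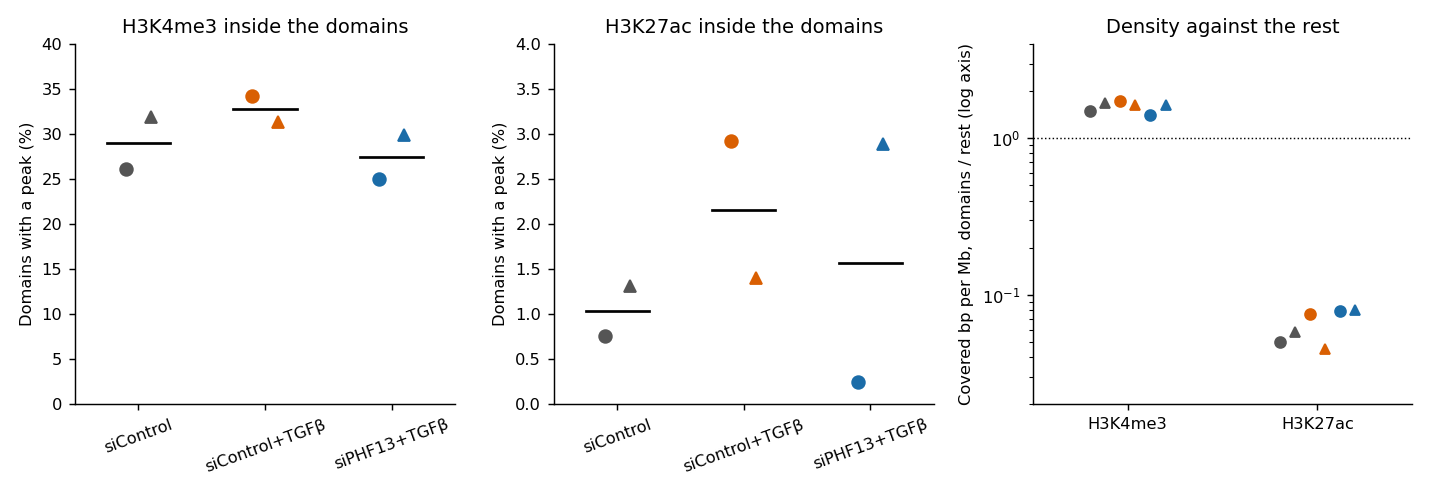
Percentage of the 3287 domains with an H3K4me3 peak (left) and an H3K27ac peak (middle) in each library (circles, replicate 1; triangles, replicate 2; line, group mean), and the bp covered per Mb of domain divided by that in the rest of the genome away from gaps (right, log axis, dotted line at 1). H3K4me3 lies above 1 (1.41 to 1.73) and H3K27ac far below it (0.0447 to 0.0800) in all 6 libraries.

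Along the domains, H3K4me3 rose towards the centre. With each domain cut into 10 equal parts, it covered 1.71% to 3.20% of the 2 central parts and 0.605% to 1.29% of the first and last part, a ratio of 2.48 to 2.83 per library. Just outside the borders, in a flank as long as 1 such part, it was again higher, between 1.62% and 2.74% on either side. H3K27ac covered at most 0.119% of any part inside the domains in any library. In siControl+TGFβ replicate 1 it stepped from 0.0668% in the first part inside to 0.932% in the adjoining flank. The step outward at the border was seen in 6 of 6 libraries for H3K27ac, and H3K27me3, which set the borders, had its own minimum just outside them.

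**Figure D5:**
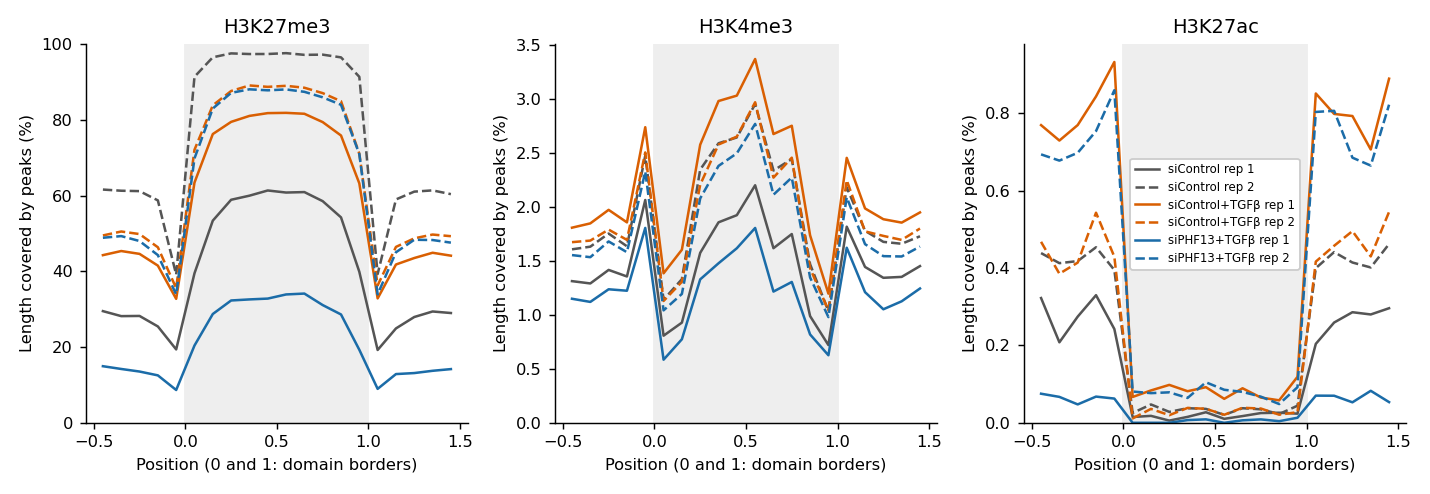
Percentage of length covered by peaks of each modification (vertical axes, different scales) along the domains scaled to the same length, from 0 to 1 (grey, in 10 parts), with flanks of 0.5 domain lengths (colour, group; solid, replicate 1; dashed, replicate 2). Inside the domains H3K4me3 is highest near the centre and lower in the first and last part, and it is higher again just outside. H3K27ac is near 0 inside and rises at once outside.

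Embedded H3K4me3 was more frequent in domains with a coding TSS, a comparison not adjusted for domain length. Of the 826 domains with a coding TSS 500 (60.5%) had it in all 6 lists, and of the 2461 without one 276 (11.2%) had it. Domains with H3K4me3 in all 6 lists were also longer, with a median of 16585 bp against 13689 bp for those with none. Seen from the genes, 437 of the 929 coding TSSs in domains (47.0%) had an H3K4me3 peak within 1 kb in all 6 lists, against 65.3% of coding TSSs elsewhere, and 380 (40.9%) had none in any list, against 30.4%. For H3K27ac the gap was wide. 31 (3.34%) had a peak within 1 kb in at least 1 list, against 59.2% elsewhere. Domains with H3K4me3 in all 6 lists held a median of 19.3 CpGs per kb and those with none 11.04, while all domains together had 14.2 CpGs per kb and 47.4% GC, against 9.75 and 40.8% in the rest of the genome.

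The domains with the most H3K4me3 were chr19:48405634-48462643 and the PAX5 start. The first overlaps no coding gene, had a large peak in all 6 lists, and 85.4% of its 100-base stretches occurred more than once in the genome. H3K4me3 covered 3498 and 5246 bp of it (siControl), 6105 and 5151 bp (siControl+TGFβ) and 2845 and 5017 bp (siPHF13+TGFβ). At the PAX5 start it was 4342 and 4502, 5390 and 4435, and 3595 and 4557 bp. Next came chr11:16622806-16637143, which holds the start of C11orf58 and a part of SOX6, the EN1 domain, and chr3:169371375-169389959, which holds a start of MECOM, a zinc finger regulator of blood stem cells. In none of these 5 did the values of the groups lie apart in both comparisons.

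H3K27ac inside domains was concentrated in few places. The largest median was in chr2:133015200-133034893, with ANKRD30BL, a domain of all 6 lists. It held 1216 and 4115 bp (siControl), 5642 and 1540 bp (siControl+TGFβ) and 203 and 5161 bp (siPHF13+TGFβ). In chr1:161411865-161425223, which overlaps no coding gene, it covered 1015 to 2303 bp over the 6 lists. There 94.7% of the 100-base stretches occurred more than once in the genome. ART1 and ART5, ADP-ribosyltransferase genes, lay in chr11:3652276-3682154 with 546 to 1123 bp. The related genes FRG2B and FRG2C lay in domains with 196 to 1301 bp and 259 to 952 bp. Of the 152 domains with H3K27ac in at least 1 list 24 had over 50% repeated stretches, and of the 3135 without it 96.

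Between groups the shares of domains with an embedded mark did not pass an exact permutation test, which with 2 libraries against 2 cannot go below p = 0.333. With TGFβ the share with H3K4me3 went from 29.0% ± 4.11 to 32.8% ± 2.04 (SD, n = 2), a difference of 3.803 points (exact two-sided permutation p = 0.667). With PHF13 depletion it was 27.5% ± 3.42, a difference of -5.35 points from siControl+TGFβ (exact permutation p = 0.333), and each siPHF13+TGFβ library lay below each siControl+TGFβ library. In covered bp on the log2 scale the differences were 0.34 (exact permutation p = 0.667) and -0.56 (exact permutation p = 0.333). With lists cut to the length of the shortest, the differences in the H3K4me3 share were 1.38 and -2.13 points. The domains took 3.86% to 3.98% of the H3K4me3 peaks of each list. In the rest of the genome H3K4me3 covered 13445 and 12285 bp per Mb (siControl+TGFβ) and 8188 and 11381 bp per Mb (siPHF13+TGFβ). The lower values were thus not particular to the domains. The share with H3K27ac was 1.03% ± 0.387 for siControl, 2.16% ± 1.08 for siControl+TGFβ and 1.57% ± 1.87 for siPHF13+TGFβ (SD, n = 2), with exact permutation p-values of 0.333 and 0.667. Both comparisons share the siControl+TGFβ libraries. Without siPHF13+TGFβ replicate 1 the H3K27ac share was 0.730 points higher, not lower, with PHF13 depletion.

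Merged over the 6 lists, 1661 of the 44697 H3K4me3 regions and 219 of the 39923 H3K27ac regions overlapped a domain. Of those 920 (55.4%) and 8 (3.65%) had a peak in all 6 lists, against 47.7% and 12.5% of regions outside domains. A region was called gained where both libraries of the later-named group and neither of the other had a peak, and lost in the reverse case. With TGFβ 52 H3K4me3 regions in domains were gained (3.13%, against 3.64% of all H3K4me3 regions) and 3 lost (0.181%, against 0.23%). With PHF13 depletion 0 were gained (against 0.152%) and 98 lost (5.90%, against 5.71%). For H3K27ac 15 were gained with TGFβ (6.85%, against 7.57%) and 2 lost (0.913%, against 0.115%), and with PHF13 depletion 0 were gained (against 0.0125%) and 4 lost (1.83%, against 2.09%). The shares in domains were thus near those over all regions, the 2 lost H3K27ac regions aside. Without siPHF13+TGFβ replicate 1, the shortest list, 40 H3K4me3 regions (2.41%, against 4.47% of all) and 49 H3K27ac regions (22.4%, against 10.3% of all) were gained with PHF13 depletion.

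Of the H3K4me3 regions gained with TGFβ, the widest on average over the 6 lists lay in the downstream PAX5 domain, at chr9:36801967-36802901. It covered 0 and 0 bp (siControl), 531 and 672 bp (siControl+TGFβ) and 550 and 785 bp (siPHF13+TGFβ), so it was present in both TGFβ-treated groups. Another, chr17:27332378-27333439, lay in the domain of PIPOX, a peroxisomal oxidase, and SEZ6, a neuronal gene. The siControl+TGFβ lists had 630 and 1062 bp there and the other 4 lists 0 bp. The pattern was the same at chr7:55660982-55661873, outside coding genes, with 734 and 824 bp. The region in the GOLGA6A domain, chr15:74373057-74373761, covered 309 and 667 bp with TGFβ alone, and 0 and 639 bp where PHF13 was depleted too. The 3 lost with TGFβ were narrow. They lay in the domain of KCNN3, a potassium channel, at the end of that of OSTM1, a partner of a lysosomal chloride transporter, and outside coding genes on chromosome 7, with 175 to 720 bp in siControl. Of the H3K27ac regions gained with TGFβ the widest on average, chr2:26918791-26920246, lay at the end of the domain of KCNK3, a potassium leak channel. It covered 0 and 0, 1362 and 492, and 0 and 1456 bp.

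Of the H3K4me3 regions lost with PHF13 depletion, the widest on average over the 6 lists lay in the domain of BSND, a chloride channel subunit, and TMEM61, at chr1:55461706-55463251. It covered 148 and 731 bp (siControl), 1198 and 1021 bp (siControl+TGFβ) and 0 bp (both siPHF13+TGFβ lists). NRXN2, a presynaptic adhesion gene, had one at chr11:64410420-64411662, with 170 and 962, 1172 and 793, and 0 and 0 bp. GRAMD1B, a cholesterol transporter, had one at chr11:123430403-123431622, with 0 and 763, 1149 and 603, and 0 and 0 bp. CAMK2N1, an inhibitor of CaM kinase II, had one at chr1:20802573-20803497, with 0 and 526, 726 and 925, and 0 and 0 bp. In all 4 the lower siControl library was replicate 1, so the siControl libraries spread over much of the range between the other groups. The 4 H3K27ac regions lost with PHF13 depletion lay in domains of IGSF9B, of the neurotrophin gene BDNF and of the neuronal factor gene MYT1L, and in one outside coding genes. They covered 211 to 903 bp in siControl+TGFβ replicate 1 and 154 to 241 bp in replicate 2, and 0 bp in both siControl lists.

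Width was tested where a region had a peak in all 6 lists, on log2 covered bp with limma over 21457 H3K4me3 regions and 4966 H3K27ac regions. No region passed an adjusted p of 0.05 in either comparison, in domains or elsewhere, so 0 of 920 H3K4me3 and 0 of 8 H3K27ac regions in domains were called, against 0% of all. For H3K27ac 0 of the 8 had an unadjusted p below 0.05 in either comparison, against 0.121% of all regions wider with TGFβ and 0% for the other calls. At an unadjusted p below 0.05, 30 of the 920 (3.26%) were wider with TGFβ, against 2.53% of all regions, and 0 narrower, against 0.0326%. With PHF13 depletion 82 (8.91%) were narrower, against 7.27%, and 0 wider, against 0.0419%. The median log2 change in domains was 0.20 with TGFβ, against 0.13 over all regions, and -0.35 with PHF13 depletion, against -0.24. These shifts were in part common to whole libraries. With each library centred on its median width they became 0.06 and -0.09 in domains.

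The H3K4me3 region in a domain with the smallest p in both comparisons, which share the siControl+TGFβ libraries, was chr1:20539366-20539994, at the edge of a domain outside coding genes. Its widths were 217 and 181 bp (siControl), 542 and 526 bp (siControl+TGFβ) and 222 and 226 bp (siPHF13+TGFβ). The log2 change was 1.43 with TGFβ (SE 0.13, limma adjusted p = 0.944) and -1.25 with PHF13 depletion (SE 0.13, limma adjusted p = 0.483). In the domain of ROPN1, a sperm flagellum gene, chr3:123698673-123699571 measured 589 and 596, 862 and 823, and 582 and 516 bp. In the domain of NEURL1, a neuronal ubiquitin ligase gene, chr10:105314382-105315551 measured 475 and 748, 1150 and 1068, and 465 and 475 bp. In each of the 3 the siControl+TGFβ values lay above all 4 others. They were picked for being among the smallest p of both comparisons, so this shared pattern follows from the choice and nothing is read from it. None passed the adjusted test.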

How the data were processed

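ChIP-seq of H3K4me3, H3K27ac and H3K27me3 was done in PANC-1 cells of 3 groups with 2 libraries each, which gave 18 deposited peak lists. Per the labels and the study's methods, the authors trimmed reads with Trim Galore 0.4.1, aligned them to hg19 with Bowtie2 2.4.1, removed duplicates with Picard and called peaks in each library against input with MACS2 2.2.7.1, as narrow peaks for H3K4me3 and H3K27ac and as broad peaks for H3K27me3. The deposited lists give position, a score, the fold enrichment (a ratio) over input, and p and q values on a −log10 scale. They hold no counts, so the depth is unknown and no counting interval can be given.

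Coordinates are 1-based on hg19 (GRCh37), with genes of GENCODE 44 lifted to that build. The 6 lists of a modification were merged where they overlapped, and covered bp were summed per library. Groups follow the labels. Shares and covered bp were compared by exact two-sided permutation over libraries, and log2 widths by limma 3.58.1 (R 4.3.3) with Benjamini-Hochberg adjustment over all regions with a peak in all 6 lists. Interval code (Python 3.11.15, NumPy 2.4.6, pandas 2.3.3) and the limma fit were tested on simulated data. Domains and lists were chosen with earlier results of these data known. The domains named are the 12 longest, the 12 with a large peak in the most lists and the 8 each with most H3K4me3 and H3K27ac. The regions named are the 4 widest on average among those gained or lost, and the genes named lie in these or belong to the lists. Those outside this rule, such as the remaining domains with a large peak in all 6 lists and the H3K27ac regions, were chosen after their values were seen. Of the other-cell markers PECAM1 was not matched in the annotation and was not used. Some genes and 1 sequence are not reported here. Alternatives were other length and gap limits, lists of equal length, a q filter, whole peaks, leaving out each library, the replicate block, and a crossed block chosen after seeing the data.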

Additional observations from a re-analysis of the deposited data

How the results depend on the processing

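Of the recomputed values, 209 kept their direction and their side of the threshold, or moved within the limit for a count, 43 moved further and 4 reversed. In 2 more, both of H3K27me3 bp, the sign changed within the spread between replicates, to -0.26 with TGFβ without siControl replicate 1 and to 0.05 with PHF13 depletion without siPHF13+TGFβ replicate 1. The lists give no depth, and with 2 libraries a group no exact test between groups could pass. The difference in the share of domains with H3K27ac under PHF13 depletion was 0.0 points with lists cut to the shortest, 0.730 without siPHF13+TGFβ replicate 1 and 0.167 without siControl+TGFβ replicate 1, and leaving out each library gave -1.92 to 0.730. The log2 difference in H3K27ac bp was -3.32 to 0.69, the highest without siPHF13+TGFβ replicate 1. The cause was not tested.

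Counts of gained and lost regions can only rise when a library is left out, since fewer libraries then have to agree. For H3K4me3 with TGFβ, 59 to 255 were gained, the highest without siControl replicate 2, and 3 to 57 lost. With PHF13 depletion 0 to 40 were gained and 105 to 305 lost. The highest counts of gained with TGFβ and lost with PHF13 depletion were 15.4% and 18.4% of the regions in domains, against 13.5% and 17.1% of all. For H3K27ac with TGFβ 16 to 87 were gained and 3 to 20 lost, and with PHF13 depletion 0 to 49 were gained and 4 to 51 lost, the highest counts of gained with TGFβ and lost with PHF13 depletion being 39.7% and 23.3% in domains, against 33.6% and 19.1% of all. With lists cut to the shortest, H3K4me3 counts were 23 gained and 5 lost with TGFβ and 9 gained and 43 lost with PHF13 depletion, and H3K27ac counts were 0 gained and 1 lost with TGFβ and 0 lost with PHF13 depletion. Without the gap rule, H3K4me3 had 8 lost with TGFβ and 6 gained with PHF13 depletion, and H3K27ac had 29 gained and 5 lost with TGFβ and 8 lost with PHF13 depletion. With large peaks of at least 15000 bp, H3K4me3 had 1 lost with TGFβ, and H3K27ac had 9 gained and 1 lost with TGFβ and 2 lost with PHF13 depletion. Without large peaks of the longest list, H3K4me3 had 1 lost with TGFβ and H3K27ac 2 lost with PHF13 depletion. With a −log10 q of at least 3, H3K4me3 had 1 lost with TGFβ and H3K27ac 8 gained and 1 lost.

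Leaving out each library gave 0 to 35 narrower H3K4me3 regions in domains by limma with PHF13 depletion and 0 to 7 narrower H3K27ac regions, the highest without siPHF13+TGFβ replicate 2. That was 3.804% of the H3K4me3 regions in domains, against 3.37% of all, and 87.5% of the H3K27ac regions in domains, against 89.9% of all, in a fit where the lone library was assumed to vary like the other groups.

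Deviations of same-numbered libraries correlated at -0.26 and -0.22 for H3K4me3 and -0.25 and -0.22 for H3K27ac. Same-numbered libraries thus did not deviate alike, which cannot exclude that such libraries were prepared together. With the replicate block, limma gave 0 calls in both comparisons, and at an unadjusted p below 0.05 it gave 25 wider H3K4me3 regions in domains with TGFβ (2.72%, against 3.04% of all regions called either way) and 89 narrower with PHF13 depletion (9.67%, against 7.09%). The crossed block, chosen after seeing the data, gave 0 calls, and 74 (8.04%, against 5.49% of all) and 176 (19.1%, against 12.9%) at that unadjusted p. The block left the differences in shares and bp as they were, among them 3.803 points for H3K4me3 with TGFβ, and 2 pairs cannot go below an exact sign-flip p of 0.5.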
